A study of Mus musculus and Oryctolagus cuniculus and Sus scrofa with 20 samples.

Results

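The pachytene piRNA tags of 26-28 nt are short RNA sequences, each a distinct read sequence with its count, taken from the mouse pachytene spermatocyte library. A tag was a member if it was 26 to 28 nt long, began with T (the DNA letter for U), reached at least 2 reads per 1000000 reads of the library (RPM) in pachytene and stayed below 0.2 RPM in zygotene. The rule found 17231 tags, which is 29.2% of the 59096 pachytene tags at that minimum, out of 21610173 distinct tags in the whole series. They comprised 6497 tags of 26 nt, 6208 of 27 nt and 4526 of 28 nt. Length, first base, pachytene level and zygotene level chose the tags, so these values are given as a description. The same limits applied at 29 to 32 nt gave 21060 tags, used below for comparison and called the 29-32 nt tags. The 59096 tags at the minimum, also used for comparison, are of any length and first base and had no zygotene limit.

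The series profiled small RNA in 20 libraries of 1 sample each, made from total RNA, in a study of an X-linked miRNA family in male germ cells. The mouse stages were wild type C57BL/6 cells, namely cultured spermatogonia stem cells (SSC), pre-leptotene and leptotene spermatocytes of postnatal day 9, zygotene spermatocytes of day 13, pachytene spermatocytes and round sperms (round spermatids) of day 25, and mature sperms. Wild type whole testes came from rabbits of day 10, 30, 60, 70, 80, 90, 110 and 180, from adult pig and from adult rat. A spike-in RNA had been added to the rabbit samples. A second SSC experiment, labelled C57BL/6 x DBA2 F1 and day 15, held a wild type control and miR-741 knock-out lines made by TALEN and by CRISPR, each knock-out from single picked colonies. A protocol text shared by all samples describes SSC of such an F1 mouse with actin-EGFP transgenes on MEF feeder cells, and does not say whether the first SSC library, labelled C57BL/6, was grown likewise. With 1 library per group no difference has a replicate check, so no test was made, and the 95% intervals below cover counting error only. Fewer cells of a type and less RNA per cell cannot be told apart in such libraries.

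piRNAs are small RNAs bound by PIWI proteins, which silence transposons and cleave target RNAs in the germ line. In the mouse testis a large class appears when spermatocytes enter pachytene, cut from long noncoding transcripts of a limited number of genomic loci. MILI carries the shorter of these piRNAs and MIWI, which comes on later and persists in round spermatids, carries longer ones. A piRNA precursor is cut to set the 5′ end, loaded with a preference for U at the first base, and then trimmed from its 3′ end until the protein covers what is left. One precursor can therefore give tags with the same 5′ end and different 3′ ends. No protein was immunoprecipitated here, so tags were sorted by length alone and none is assigned to MILI or MIWI.

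The tags below show what a member looks like. They are the most abundant members of the 5 genomic groups that held most of the members placed on annotated transcripts, and the group's gene stands before each. Capitals mark the first base, which the rule fixed, and the last base.
Gm49794: TacggccctgagaacccacaagcaaG
Gm21269: TgtgaatttcaactgttggctccacagG
Gm10619: TaactctaaatggactttggccccaggT
1700029M20Rik: TagtgagccttcacattagcccgagG
1700001L05Rik: TttcacagatgaggaaactgaagctT

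All 5 genes are annotated as long noncoding RNAs in GENCODE vM21 on build GRCm38, and each tag lay whole in 1 exon, on the sense strand. The Gm49794 tag lay at chr17:27355770-27355795 (+ strand, exon 1) and the Gm21269 tag at chr7:73824994-73825021 (+ strand, exon 1). The Gm10619 tag lay at chr7:73809739-73809766 (- strand, exon 4), the 1700029M20Rik tag at chr4:135629792-135629817 (+ strand, exon 3) and the 1700001L05Rik tag at chr15:83356249-83356274 (- strand, exon 3). The Gm49794 tag had 1 read in zygotene, 7774 in pachytene, 2163 in round sperms, 76 in mature sperms and 0 in SSC and rat. The Gm21269 tag had 0 reads in zygotene, 7856 in pachytene, 4199 in round sperms, 422 in mature sperms, 0 in SSC and 1 in rat. Both were thus highest in pachytene and far lower in mature sperms. The Gm10619 tag was as frequent in round sperms (1453 reads) as in pachytene (1400 reads), with 299 in mature sperms. The 1700029M20Rik tag went from 335 reads in pachytene to 35 in round sperms and 0 in mature sperms. The 1700001L05Rik tag had 226, 86 and 14 reads in those 3 libraries, and it was also found in SSC (21 reads) and in rat testis (39 reads).

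Library depth ran from 597732 reads (CRISPR SSC) to 25908109 reads (mature sperms), with 22785285 in pachytene and 23552284 in round sperms, where 3 reads are worth 0.132 and 0.127 RPM. Of the germ cell miRNAs with a known sequence, the pachytene library carried miR-449a-5p at 69.6 RPM and miR-34b-5p at 1.14. In the cultured SSC library they stood at 24.9 and 0.837 RPM. The 3 Sertoli cell miRNAs summed to 5.09 RPM in pachytene against 763 in zygotene. The 2 blood miRNAs with a known sequence (miR-451a and miR-144-3p) were at 0 in pachytene. The mouse tags were also found in libraries of other species. Each rabbit library held 1859 to 3116 of them (10.8% to 18.1%), against 23.1% to 35.2% of the 29-32 nt tags. Of the members found there, 91.9% to 94.9% had only 1 or 2 reads. There were 4 members that held the most frequent 14 nt stretch of the pachytene tags of 33 nt or more. They accounted for 1657 of the 2700 member reads of the pig library and 326 of the 2855790 in pachytene.

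In pachytene the members held 12.5% of all reads and 16.3% of the reads of 25 to 32 nt. A member needed 46 reads to enter and had a median of 84 reads (3.69 RPM), with quartiles at 2.59 and 6.58 and a highest level of 768 RPM. The 2124 most abundant members, 12.3% of them, held as many reads as all others together. In zygotene 16151 members had no read, and the others had 1 to 3. The zygotene limit removed 1364 tags that met every other condition. Just inside the pachytene minimum lay tags of 46 reads (2.02 RPM), such as a 28 nt tag in the untranslated end of Cbl (chr9:44147338-44147365, - strand, exon 16), with 156 reads in round sperms. Just outside lay tags of 45 reads (1.97 RPM).

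**Figure D1:**
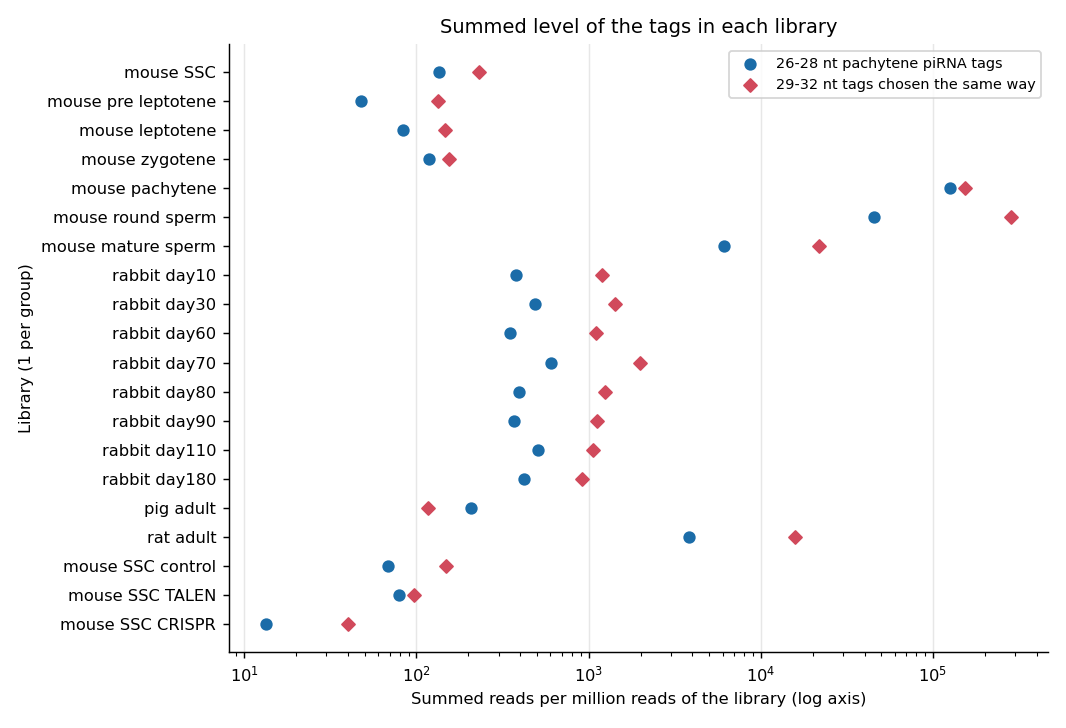
Summed level of the 26-28 nt tags (circles) and of the 29-32 nt tags (diamonds) in each of the 20 libraries, in RPM on a log axis. The 26-28 nt tags sum to 125335 RPM in pachytene and the next highest library is round sperms at 45531, whereas the 29-32 nt tags are highest in round sperms at 284382.

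Most members were one of several lengths at the same 5′ end. A 5′ end was defined by the first 24 nt, and the members had 11502 of them. Of these ends 7670 held 1 member, 2520 held 2, 962 held 3 and 350 held more. At 4752 ends, 41.3% of the members' ends and 37.5% of the 12674 ends of the 29-32 nt tags, a 29-32 nt tag was found as well. At 98.1% of the ends some tag of 29 to 34 nt began with a whole member. In pachytene 26 nt was the most frequent length at these ends, with 17.0% of reads, and 30 nt formed a second peak with 13.4%.

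In round sperms the same 5′ ends carried mostly longer tags. There 30 nt held 31.6% of the reads at these ends and 26 nt held 3.92%. Among reads of 26 to 34 nt, the longer ones (29 to 34 nt) made up 47.4% in pachytene (95% Clopper-Pearson interval 47.3 to 47.4), 82.7% in round sperms, 72.3% in mature sperms and 76.6% in rat testis. These pooled shares lean on abundant ends. The median over single ends with at least 50 reads was 30.7% in pachytene (11496 ends), 72.1% in round sperms (8557), 75.3% in mature sperms (2643) and 69.8% in rat (277).

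**Figure D2:**
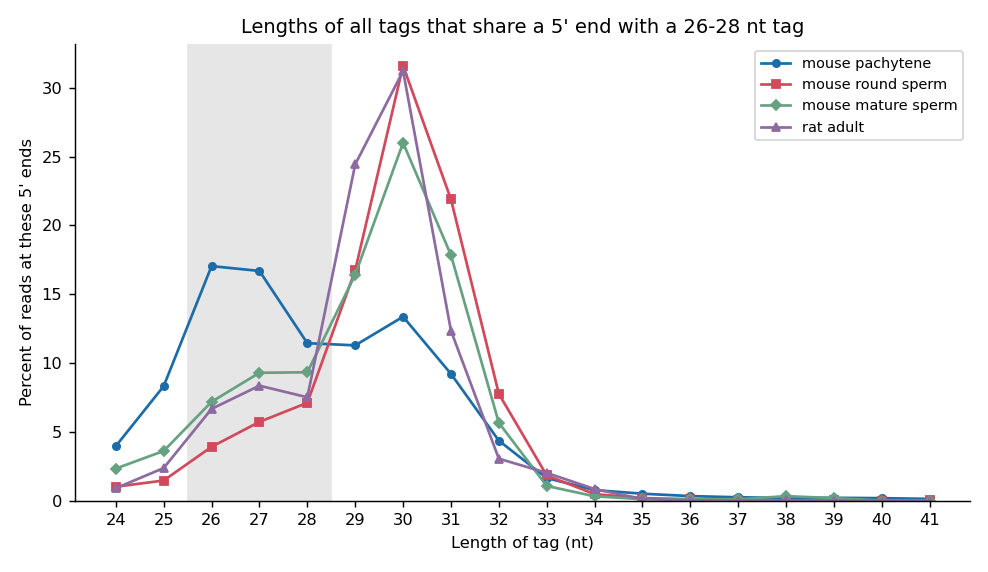
Percent of reads of each length from 24 to 41 nt among all tags that share their first 24 nt with a member, in pachytene, round sperms, mature sperms and rat testis. The grey band marks 26 to 28 nt, where the pachytene line peaks, while the other 3 lines peak at 30 nt.

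Compared end by end, 7794 of 8556 ends (91.1%) had a larger share of longer tags in round sperms than in pachytene, with a median gain of 24.5 percentage points. The members were chosen for a 26-28 nt tag that was abundant in pachytene, which favours ends that were short there. At the ends of the 29-32 nt tags, chosen for an abundant longer tag, 9532 of 11284 (84.5%) were also longer in round sperms, by a median of 8.85 points. A wider set took the 5′ ends that began with T and whose reads of 26 to 34 nt together reached the pachytene minimum. It is called all ends at the pachytene minimum, although ends with another first base were left out. In this set 22083 of 25455 (86.8%) were longer, by 14.1 points. The direction was thus the same in all 3 sets, and the size was largest for the members. In mature sperms 1948 of 2643 ends (73.7%) had a larger longer share than in pachytene, with a median gain of 13.6 points, against 74.3% and 8.42 points over all ends at the minimum. In rat 220 of 277 ends did (79.4%), with 19.0 points, against 77.2% and 10.8 points. The share of ends that were longer was thus near that of all ends in both libraries.

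Individual 5′ ends differed widely in their ladders of lengths. The Gm21269 end is shown here with its most abundant tag at each of 3 lengths, and after it the most abundant tags of a second end that starts 2 nt upstream (chr7:73824992, + strand). Capitals mark the bases beyond the 28 nt member of that end.
Gm21269, 28 nt: tgtgaatttcaactgttggctccacagg
Gm21269, 29 nt: tgtgaatttcaactgttggctccacaggT
Gm21269, 30 nt: tgtgaatttcaactgttggctccacaggGT
upstream end, 28 nt: tatgtgaatttcaactgttggctccaca
upstream end, 30 nt: tatgtgaatttcaactgttggctccacaGT
upstream end, 31 nt: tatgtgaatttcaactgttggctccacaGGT

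At the first of these ends the 28 nt member had 7856 reads in pachytene and 4199 in round sperms. Its 30 nt form went the other way, from 11339 reads in pachytene to 37196 in round sperms, and the 29 nt form from 6189 to 26445. At the upstream end the 28 nt member had 243 reads in pachytene and 643 in round sperms, against 22041 and 242722 for its 31 nt form. That end had the largest share of longer tags among the members with at least 200 pachytene reads, 99.3%. The 2 ends together show that one stretch of precursor RNA carried starts 2 nt apart, of which the upstream one was almost wholly long. Both the 29 nt and the 30 nt tag of the first end stop in T, after a different number of G.

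Other ends stayed short. The Gm49794 end had 25.8% longer reads in pachytene and 28.01% in round sperms, with 27 nt its most frequent form in round sperms (3532 reads). The third most abundant member of all lay opposite the unclassified transcript Gm43353 (chr5:113325004-113325029, - strand).
Gm43353 antisense: TgagatccacaggtaaacctatctgA
It had 10291 reads in pachytene, 8303 in round sperms and 307 in mature sperms. Its end held only 10.19% longer reads in pachytene, and 1323 longer against 9802 short reads in round sperms. The group of 46 members around it had the shortest ladders of the 7 largest groups, with 16.01% longer reads in pachytene and 25.54% in round sperms. Of the 3020 members with at least 200 pachytene reads, 8 had no longer read at all at their end.

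As exact tags, the members were lower in round sperms than in pachytene. They summed to 125335 RPM in pachytene (95% Poisson interval 125190 to 125480) and to 45531 in round sperms (45445 to 45618), a log2 ratio of -1.46, or 2.75-fold lower. The ratio was graded by length, with a log2 ratio of -2.18 for 26 nt, -1.61 for 27 nt and -0.67 for 28 nt. The 29-32 nt tags had a log2 ratio of 0.88. At least 1 read in round sperms was found for 16793 members (97.5%), against 96.3% of all tags at the pachytene minimum.

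Called by a change of at least 4-fold, 10175 members (59.1%) were lower in round sperms, where 45.9% of all tags at the pachytene minimum were. Higher by as much were 67 members (0.389%), against 5.02% of all tags. Members and background tags were both chosen for a high pachytene level, which by itself favours lower values in any other library. The median log2 ratio was -2.35 for the members and -1.75 for all tags. Of the 26 nt members 72.4% were 4-fold lower, of the 28 nt members 38.9%. Across members the 2 libraries ranked the tags alike to a degree (Spearman's rho 0.50 over 17231 tags, many of which share a 5′ end).

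**Figure D3:**
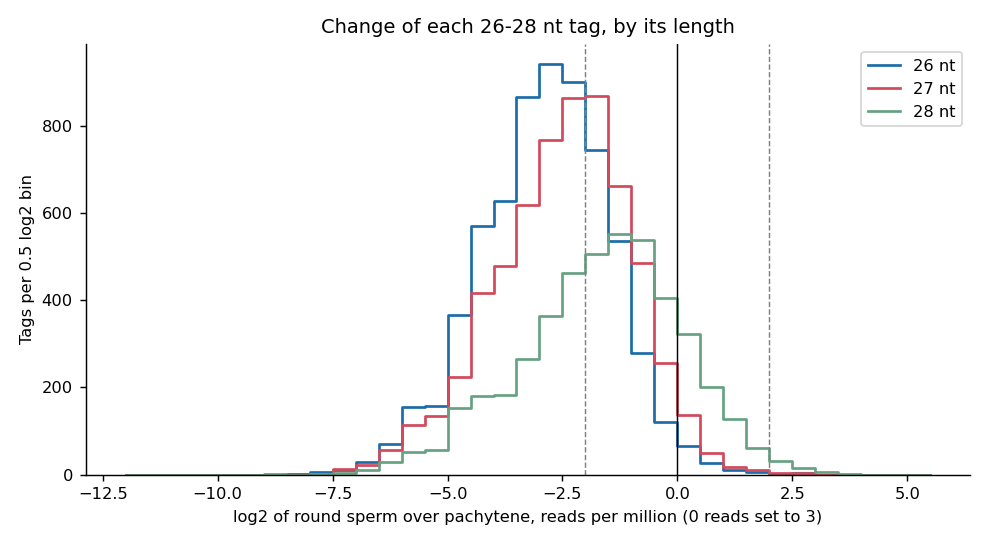
Number of 26, 27 and 28 nt tags in each 0.5-wide bin of the log2 ratio of round sperms to pachytene (a count of 0 set to 3 reads), with dashed lines at 4-fold. The 26 nt curve has its median at -2.78, the 27 nt curve at -2.36 and the 28 nt curve at -1.51.

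Counted by 5′ end over all lengths from 24 to 34 nt, the level was nearly the same in both libraries. The 11502 ends summed to 368951 RPM in pachytene and 353559 in round sperms, a log2 ratio of -0.06. The typical end was still lower, with a median log2 ratio of -1.17. At least 4-fold lower were 3630 ends (31.6%), against 24.9% of all ends at the pachytene minimum (only ends beginning with T, as above). Higher by as much were 129 ends (1.12%), against 3.39% of all ends, whose median log2 ratio was -0.66.

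Above their pachytene level in round sperms were 1107 members (6.42%), against 25.2% of all tags at the pachytene minimum. A 27 nt tag that matched no annotated transcript was the most abundant member in round sperms, with 7979 reads in pachytene, 15876 in round sperms and 976 in mature sperms. The largest ratio belonged to a 28 nt tag in the untranslated part of exon 7 of Tbl2 (chr5:135162215-135162242, + strand), with 123 reads in pachytene, 1525 in round sperms and 150 in mature sperms, a log2 ratio of 3.58 (3.32 to 3.86). Another such tag lay in exon 4 of Gm21269 (chr7:73836626-73836653, + strand).
Gm21269, exon 4: TcccaagaaagcattctgaacagcagtT
It had 112 reads in pachytene, 1212 in round sperms and 84 in mature sperms, a log2 ratio of 3.39. Its end held 1231 short reads in round sperms and 74 longer ones, so the larger count was that of the short form. With a count of 0 set to 3 reads, the lowest ratio was that of a 28 nt tag with 730 reads in pachytene and 2 in round sperms. The 438 members with no read in round sperms were ranked at that bound, so they could stand above tags with 1 or 2 reads.

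In mature sperms the members summed to 6079 RPM (6049 to 6109), a log2 ratio to pachytene of -4.37, or 20.6-fold lower. The 29-32 nt tags stood at 21807 there, 7.07-fold lower than in pachytene. At least 1 read was found for 6314 members (36.6%), against 45.3% of all tags at the pachytene minimum. Of the members 16372 (95.01%) were at least 4-fold lower, where 88.0% of all tags were, and 0 were 4-fold higher, against 1.07%. The order by length was the same as in round sperms, with log2 ratios of -4.85, -4.46 and -3.76 for 26, 27 and 28 nt. The most abundant member in mature sperms was a 26 nt tag that matched no annotated transcript, with 930 reads in pachytene, 955 in round sperms and 1799 in mature sperms, and its end held only 4.87% longer reads in pachytene. The 4 epithelial miRNAs summed to 343 RPM in mature sperms against 1.40 in pachytene, with all 4 detected. The feeder and stromal miRNAs summed to 60.8 RPM against 3.12, and the Sertoli cell miRNAs to 14.9 against 5.09. Of the blood miRNAs, miR-451a stood at 8.61 RPM against 0, and miR-144-3p was at 0 in both. The part of such cells in these shares was not tested.

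In the cultured SSC library the members summed to 135 RPM (130 to 140), a log2 ratio of -9.86. It held 463 of them (2.69%), against 3.99% of the 29-32 nt tags and 8.62% of all tags at the pachytene minimum. Of the 463 members 72 had 10 reads or more. Only all tags at the minimum lack the zygotene limit. Above its pachytene level was 1 member, against 0.0142% of the 29-32 nt tags and 2.89% of all tags at the minimum. It was a 28 nt tag with 96 reads in SSC, 0 in zygotene, 76 in pachytene, 35 in round sperms and 0 in mature sperms. The group on 1700001L05Rik had the highest summed SSC level of the 5 largest groups, 18.8 RPM, against 0.197 for Gm21269 and 1.97 for Gm49794. The feeder and stromal miRNAs summed to 1955 RPM in this library and 3.12 in pachytene, and their part was not tested.

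The second SSC experiment was shallower, with 3 reads worth 2.07 RPM in the control, 3.56 in TALEN and 5.02 in CRISPR. The control held 35 members, 28 of them also found in the first SSC library, the TALEN line 27 (23 shared) and the CRISPR line 5 (all 5 shared). These were 0.203%, 0.157% and 0.029% of the members, against 0.342%, 0.161% and 0.076% of the 29-32 nt tags. At this depth a difference among the 3 lines was not read. Pre-leptotene spermatocytes summed to 47.8 RPM (437 members, 2.54%) and leptotene spermatocytes to 83.0 (519 members, 3.01%). Of the 29-32 nt tags 5.76% were found in pre-leptotene and 5.75% in leptotene. In these 2 libraries 90.8% and 78.8% of the members found had 1 or 2 reads, and 1 and 7 members had 10 reads or more.

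In adult rat testis 729 members (4.23%) were found with the identical sequence, against 4.46% of the 29-32 nt tags and 5.94% of all tags at the pachytene minimum. They summed to 3824 RPM (3775 to 3873). Of these members 326 had 10 reads or more and held 21714 of the 23058 reads, so the rat signal lay in a small number of tags at solid counts. The rat level was above the pachytene level for 141 members (0.818%), against 1.64% of the 29-32 nt tags and 1.70% of all tags at the minimum. The highest was a 28 nt tag that matched no mouse transcript, with 1245 reads in rat, 951 in mouse pachytene, 1953 in round sperms and 18 in mature sperms. The third highest lay in exon 3 of the noncoding gene 1700020N18Rik (chr1:91405142-91405168, - strand). In the lines below, capitals mark the bases beyond the 27 nt member.
1700020N18Rik, 27 nt: ttgaaacctgagacttccagaagatgc
1700020N18Rik, 31 nt: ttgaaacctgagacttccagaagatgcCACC
The 27 nt tag had 7566 reads in pachytene, 5518 in round sperms, 308 in mature sperms and 636 in rat. The 31 nt form had 759 reads in pachytene, 7688 in round sperms, 881 in mature sperms and 0 in rat. Only rat reads identical to the mouse tag were counted. A longer rat form with another base beyond the 27 nt would be missed, so the 0 does not show that rat lacks one.

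The rabbit libraries differed from rat in kind. The members summed to 350 to 604 RPM there, and more of them were found than in rat (1859 to 3116), but only 3 to 17 with 10 reads or more. The 29-32 nt tags summed to more in the rabbit libraries, 914 to 1994 RPM. A larger share of them was found, 23.1% to 35.2% against 10.8% to 18.1% of the members. The members found in rabbit were the more abundant ones in mouse, with median pachytene levels of 6.41 to 7.64 RPM against 4.30 for those found in rat and 3.69 for all members. Pre-leptotene, leptotene and pig showed similar single reads, and in pig the members found had a median pachytene level of 7.72 RPM. The source of these single reads was not tested, so a member with 1 or 2 reads in any of these libraries is not read as expressed there.

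**Figure D4:**
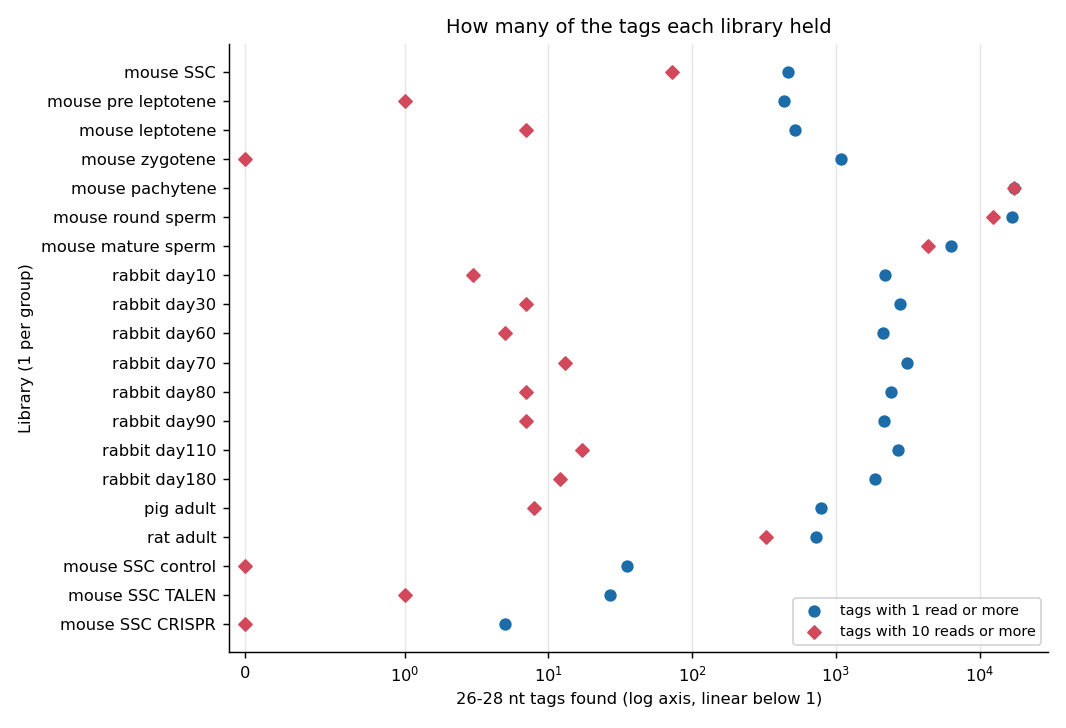
Number of the 17231 tags found in each library with at least 1 read (circles) and with at least 10 reads (diamonds), on a log axis that is linear below 1. The 8 rabbit libraries hold 1859 to 3116 tags but 3 to 17 at 10 reads, whereas rat holds 729 and 326.

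The base make-up beyond the fixed first T was uneven near both ends. At position 2, counted from 1 at the 5′ end, G was found in 40.8% of members (40.1 to 41.6), A in 36.1%, T in 14.5% and C in 8.57%. Counted by 5′ end, G there was 40.02%. The intervals for bases take tags as independent, although tags of the same end share their first 24 nt, so they are too narrow. In the 29-32 nt tags G stood at 33.3% and C at 12.6%. At position 5 A reached 43.8%, against 47.6% in the 29-32 nt tags and 37.0% in all pachytene tags of 26 to 28 nt that began with T, abundant or not. At position 10, where A marks targets of a cleaving partner that starts with T, A was found in 28.4% (27.69 to 29.04), against 33.2% in the 29-32 nt tags and 27.1% in all pachytene tags of this size. The 26-28 nt tags with another first base, 1281 in number, had A there in 39.3%.

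The last base was T in 40.97% of members, C in 35.6% and G in 10.4%. It was C or T in 76.6% (75.9 to 77.2), or 81.1% counted by 5′ end. The share was 73.1% at 26 nt, 77.8% at 27 nt and 79.7% at 28 nt, and 82.1% in the 29-32 nt tags, where T alone reached 53.4%. All pachytene tags of 26 to 28 nt with T first had C or T last in 70.7%. Part of the T was not in the annotated transcript. Besides 1870 members that matched a transcript whole on the sense strand, 213 matched it at every base but the last, and 84.5% of these ended in T. A mismatch at the base before the last, with the last base matching, was found for 14 members. Among the 29-32 nt tags 445 mismatched only at the last base, and 93.5% of those ended in T. Tags with such a last base were 10.23% of the sense-matching members and 17.8% of the 29-32 nt tags. Terminal U addition is a known modification of small RNAs.

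On annotated transcripts 2196 members (12.7%) were placed whole, 1940 of them at 1 position, and 12.7% of the members' pachytene reads fell to placed tags. The remainder matched no GENCODE vM21 transcript, and a genome search was not made. Of the 1940 tags 86.1% lay on the sense strand, 1240 of them (63.9%) in long noncoding RNAs, 49 in sense coding sequence and 60 in sense untranslated exons. Joined where neighbours on one strand lay within 10 kb, they formed 129 groups, 52 of a single tag. The 5 largest held 54.1% of the placed members.

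The largest group, 579 members on the + strand at chr17:27325407-27367074 in Gm49794, summed to 4980 RPM in pachytene and 693 in round sperms, a log2 ratio of -2.84, and 86.7% of its members were 4-fold lower. The next, 288 members on the + strand at chr7:73816688-73838501 in Gm21269, went from 2653 to 1145 RPM (-1.21), and 50.0% were 4-fold lower. On the opposite strand beside it, 71 members at chr7:73808251-73819249 in Gm10619 had a ratio of -1.30. The group of 60 members in 1700029M20Rik (chr4:135626955-135630044, + strand) had -1.42 and that of 52 in 1700001L05Rik (chr15:83354007-83365508, - strand) -2.17. Ends of the Gm49794 group held 29.04% longer reads in pachytene and 66.5% in round sperms, those of the Gm21269 group 63.0% and 94.5%. The groups thus differed in how short their ladders were already in pachytene, and in all 5 the longer share was higher in round sperms. In rat the 1700029M20Rik group had the highest summed level of the 5, 111 RPM from 9 members, above the 79.1 RPM of 25 members of the Gm49794 group.

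Members also had antisense partners in pachytene whose 5′ end overlapped theirs by 10 nt, the spacing that slicing by a PIWI protein leaves. Of 1881 placed members with enough flanking sequence, 425 (22.6%, 20.7 to 24.5) had an antisense tag of 24 to 32 nt at that overlap. At the other overlaps from 1 to 20 nt the number was 59 to 120 (3.14% to 6.38%). Counted by 5′ end, 303 of 1405 had such a partner. The 29-32 nt tags had one for 18.2%, against 2.64% to 6.34% at other overlaps. The partners were 722 distinct tags, mostly scarce, with a median of 2 reads, and 42.9% of them began with T. Only 7 were members themselves. A at position 10 was found in 38.4% of members with a partner and 27.9% of those without. At this overlap position 10 of a member pairs with the first base of its partner. The 38.4% is thus the share of these members whose partner begins with T, and is no separate sign of slicing.

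**Figure D5:**
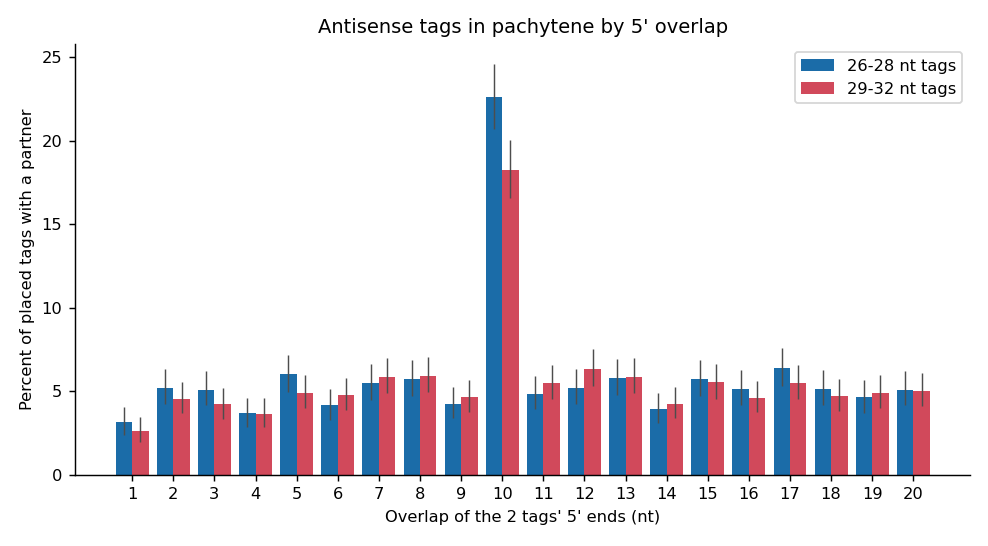
Percent of placed tags that had an antisense tag of 24 to 32 nt in pachytene, by the overlap of the 5′ ends in nt, for the 26-28 nt and the 29-32 nt tags, with 95% Clopper-Pearson intervals. Both sets stand out at 10 nt, with 22.6% and 18.2%.

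Of the 4 pairs with most reads of the scarcer tag, 1 per 5′ end, chosen after their values were seen, 3 are shown. The fourth lies 2 nt upstream of the first, and its partner begins with G. Capitals mark the first 10 bases, which are complementary between member and partner.
Gm49794 member: TAGTCATCTAtagtcctaatgcccccc
its partner: TAGATGACTAtatcctctggcacccaacc
Gm21269 member: TGATACGGGAatcctagtgtgctggg
its partner: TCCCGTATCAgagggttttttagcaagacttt
Gm10505 member: TCCACTATCAgggacggaaaccttaaac
its partner: TGATAGTGGAaactggcgctagtccccc
The Gm49794 member (chr17:27357164-27357190, + strand, 27 nt) had 222 reads in pachytene and 29 in round sperms, and its 29 nt partner 384 and 1. The Gm21269 member (chr7:73816715-73816740, + strand, 26 nt) had 99 and 9 reads, and its 32 nt partner 123 and 22. The Gm10505 member (chr17:27325485-27325512, - strand, 28 nt) had 83 and 69 reads, and its partner, itself a 28 nt member, 197 and 4. The pair not shown had 282 reads in pachytene and 10 in round sperms for the member, and 82 and 2 for its partner. In all 4 pairs both tags had fewer reads in round sperms.

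Partners were unevenly spread over the groups. They were found for 206 of 561 members (36.7%) in the Gm49794 group, 96 of 286 (33.6%) in the Gm21269 group and 13 of 71 (18.3%) in the Gm10619 group. In the 1700029M20Rik group 1 of 60 had one, and in the 1700001L05Rik group 0 of 52. Partners were sought on the strand opposite each placed member, whether or not a transcript is annotated there.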

How the data were processed

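The authors deposited, for each of the 20 libraries, a list of distinct read sequences with their raw counts. Libraries were prepared from total RNA with Illumina's small RNA method, per the labels' protocols. The aligner Bowtie and the mouse build GRCm38 stand, with builds for the other species, in the submitters' processing notes. Trimming and alignment settings are not given in the sources used here. The members and lists were chosen with earlier results of these data known.

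Counts were divided by the library's summed count and given as RPM (per 1000000 reads), with a count of 0 set to 3 reads for ratios. Tags named in the text were the 10 most abundant in pachytene, the 3 most abundant in round sperms, mature sperms, SSC and rat, the 3 with the largest and smallest longer share at 200 pachytene reads, the 3 highest and lowest round sperm ratios, the tags beside the threshold and the 5 largest genomic groups. The best tag of each group and the antisense pairs were added after values were seen. Sequences are shown only for tags placed on a transcript, for longer forms at the 5′ end of such a tag and for antisense partners. The longer forms need not match the transcript whole. No genome sequence was used, so the planned genome search was replaced by exact matches to GENCODE vM21 transcripts, carried to GRCm38 through their exons. Marker miRNAs were exact mature sequences from RefSeq, and miR-34c-5p, miR-486a-5p, miR-150-5p, miR-143-3p and miR-145a-5p had no entry. Reads carry no molecular identifiers, so intervals cover counting error only. Selection and ladders were tested on simulated data. Python 3.11.15, numpy 2.4.6, scipy 1.17.1 and matplotlib 3.10.9 were used. Alternatives changed the minimum, the zygotene limit, the denominator, the tag definition, the fold and the value set for 0.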

Additional observations from a re-analysis of the deposited data

Results flagged for a closer look

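Reads identical to the mouse 26-28 nt tags were found in all 8 rabbit testis libraries, which the comparisons with pachytene did not use. Their summed level was 378 RPM at day 10, 490 at day 30, 350 at day 60, 604 at day 70, 394 at day 80, 370 at day 90, 510 at day 110 and 423 at day 180. These are sums over 17231 tags, and no control library gives a background to set them against. The 29-32 nt tags summed to 914 to 1994 RPM in the same libraries. At day 10 the 2175 members found (12.6%, against 25.7% of the 29-32 nt tags) had a median of 1 read and a highest count of 11. At day 110 and day 180 a few tags were higher, up to 1055 and 797 reads, and members with 10 reads or more held 3107 and 1784 reads there. The cause was not tested.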

How the results depend on the processing

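No paired analysis was possible because each group has 1 library. Of 64 alternatives 27 left the value within the limits set for calling it unchanged, 37 moved it and 0 reversed a direction. With all reads sharing the first 24 nt in place of the exact tag, the log2 ratio to pachytene became -0.061 in round sperms, -3.48 in mature sperms, -7.45 in SSC and -3.77 in rat, and the 4-fold calls became 3630 lower and 129 higher in round sperms and 10753 lower and 1 higher in mature sperms. With a minimum of 5 RPM there were 6081 members, the log2 ratios were -1.44, -4.38, -10.95 and -5.09 in that order, and calls were 3642 lower and 28 higher in round sperms and 5850 lower in mature sperms. With no zygotene read allowed the ratios were -1.52, -4.35, -10.39 and -5.10, and per 1000000 reads of 25 to 32 nt they were -1.58, -3.46, -9.26 and -5.16, with 5 members then 4-fold higher in mature sperms. At 2-fold, 302 members were higher in round sperms and 5 in mature sperms. G at position 2 was 41.95% weighted by reads, 42.4% at 5 RPM and 40.02% by 5′ end. A at position 10 was 27.5% weighted by reads. C or T at the end was 77.3%, 78.4% and 81.1% under the same 3 changes. The median share of longer reads that begin with the whole member, 30.2% in pachytene, was 28.8% for 29 to 32 nt and 26.4% at 5 RPM. Allowing up to 5 places gave 253 groups. Leaving out the 4 tags with the most frequent 14 nt stretch of long tags, added after the data were seen, left 17227 members and moved none of the round sperm, mature sperm, SSC and rat ratios beyond its interval.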

Other observations

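The members' 5′ ends often had a second start close upstream. Another tag of at least 2 RPM in pachytene began 1 to 6 nt upstream of 3769 of the 11502 ends (32.8%), most often 2 nt upstream (1275 ends), against 29.5% of the ends of the 29-32 nt tags. On transcripts the base just before the first T was C for 41.4% of members, A for 28.2%, T for 23.2% and G for 7.23%. The base after the last one was near even, from 23.8% (G) to 25.9% (C).

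Tags of 35 to 41 nt with a member's 5′ end made up 1.86% of the reads at these ends in pachytene and 0.427% in round sperms. The members found in rat at 10 reads or more had 226 different 5′ ends. Of the 35 such members with 1 place on a mouse transcript, 30 (85.7%) lay in sense in long noncoding RNAs, against 63.9% of all members placed once. On Gm49794 lay 9 of them, on Gm21269 7 and on 1700029M20Rik 6. The groups on these genes held 29.8%, 14.8% and 3.09% of all members placed once. In pig testis the members summed to 207 RPM, and to 79.9 without the 4 tags that hold the most frequent 14 nt stretch of long pachytene tags.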
